A study of Mus musculus with 2 samples.

Results

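*Cd74* and *H2-Ab1*, a pair of genes of antigen presentation by major histocompatibility complex (MHC) class II, were followed across mouse skin. They were found by their symbols among the 19465 genes of the count tables, where each symbol occurred once, so that 2 of 19465 genes are described. Transcripts were counted on Visium slides, which carry a grid of barcoded spots under a tissue section. The 4 sections came from female SKH-1 mice, a hairless strain, 10 to 12 weeks old per the labels. One section was skin exposed to ultraviolet radiation (UVR) that had received 9-cis HPR, a retinoid, at 0.03% and is called HPR skin here. Another was UVR-exposed skin that had received retinol at 0.1%, called retinol skin. The remaining ones were UVR-exposed skin with no treatment named, called UVR skin, and normal skin, called control skin. Each group had 1 section, and the labels do not say how many animals stand behind it, so variation between animals could not be measured and no test was possible.

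HPR and retinol skin shared 1 capture area and UVR and control skin another, so treatment and capture area cannot be told apart when treated skin is set against UVR or control skin. The labels give the groups of an area as upper and lower. Upper was read as the smaller row of the tissue image; the spot grid counts rows the other way and would exchange the groups of each area. The level of each section does not depend on that reading, but its name does. Spots needed 200 UMIs (unique molecular identifiers, which count captured molecules) to be kept. This left 644 HPR, 544 retinol, 647 UVR and 339 control spots, with 1249928, 1414976, 2558616 and 326095 UMIs in that order. Levels are given as counts per 1000000 UMIs (CPM), and their 95% intervals cover counting error only. A spot holds several cells, so fewer cells of a type and less RNA per cell cannot be told apart.

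MHC class II molecules are pairs of an alpha and a beta chain that show peptides from the endosome to CD4+ T cells. *H2-Ab1* encodes the beta chain of the mouse I-A molecule. *Cd74* encodes the invariant chain, which blocks the peptide groove during transport and is then cut away by endosomal proteases. In skin, class II is known from Langerhans cells, dermal dendritic cells and macrophages, and keratinocytes can be brought to express it by interferon gamma.

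The question of how irradiation and each retinoid bore on the pair over the whole section was addressed first. *Cd74* was at 256 CPM in HPR skin (95% interval 229 to 286), 180 CPM in retinol skin (158 to 203), 66.8 CPM in UVR skin (57.2 to 77.6) and 754 CPM in control skin (663 to 855). Behind these levels were 320, 254, 171 and 246 UMIs in that order. Control skin thus had the highest *Cd74* level, UVR skin the lowest, and no neighbours in that order had overlapping intervals. *H2-Ab1* was at 212 CPM in HPR skin (187 to 239), 266 CPM in retinol skin (240 to 294), 50.8 CPM in UVR skin (42.5 to 60.3) and 221 CPM in control skin (173 to 278). It rested on 265, 376, 130 and 72 UMIs. *H2-Ab1* was therefore lowest in UVR skin. The control interval overlapped those of HPR and retinol skin, which did not overlap each other. The gene record places *H2-Ab1* (ENSMUSG00000073421) on chromosome 17 at 34263227 to 34269418, and *Cd74* (ENSMUSG00000024610) on chromosome 18 at 60803849 to 60812652, of GRCm38.p6.

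**Figure D1:**
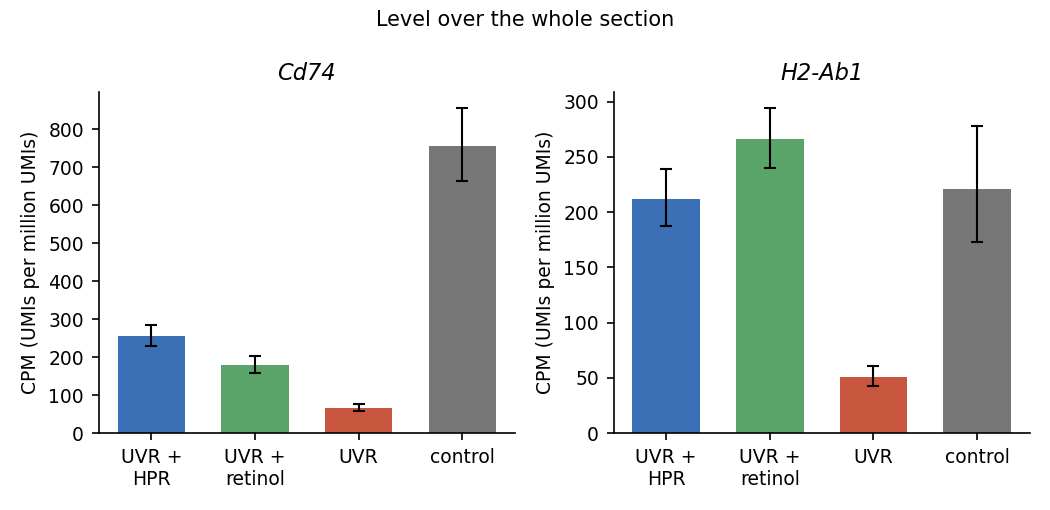
Levels of *Cd74* (left) and *H2-Ab1* (right) in CPM over the kept spots of each section; bars are the level of 1 section and whiskers its 95% Poisson interval. *Cd74* stands at 754 CPM in control skin, above 256 CPM in HPR and 180 CPM in retinol skin, whereas *H2-Ab1* lies between 212 and 266 CPM in those 3 sections and at 50.8 CPM in UVR skin.

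Set against control skin, both genes were lower in UVR skin, but by different amounts. *H2-Ab1* was 4.35-fold lower in UVR than in control skin (3.21 to 5.84), against 11.3-fold for *Cd74*. These ratios are relative to all UMIs, and the median spot had 1641 UMIs in UVR and 527 in control skin. As deposited, 93 of 647 UVR and 51 of 339 control spots held *H2-Ab1*, which are similar shares. *Cd74* was held by 125 UVR and 150 control spots. Both members passed a 2-fold size rule downwards, as did 7.62% of the 2508 genes whose summed count reached 100 UMIs, and 12.4% passed it upwards. With the outer, middle and muscle regions described below given equal weights, the log2 ratio was -1.98 rather than -3.5 for *Cd74* and -1.45 rather than -2.12 for *H2-Ab1*. Only 15 control spots were behind the outer level, and control muscle had 2 *Cd74* and 0 *H2-Ab1* UMIs. These weights leave out the *Scd1*-rich region, also described below, which held 77.2% of the control UMIs.

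Both treated skins were above UVR skin for both genes. *H2-Ab1* was 5.23-fold higher in retinol than in UVR skin (4.27 to 6.43) and *Cd74* 2.69-fold (2.20 to 3.28). At least 2-fold higher there were 4.23% of 2930 genes, and 9.08% were lower. In HPR skin *H2-Ab1* was 4.17-fold (3.37 to 5.19) and *Cd74* 3.83-fold (3.17 to 4.64) above UVR skin, where 3.42% of 2811 genes were at least 2-fold higher and 9.21% lower. With equal region weights the log2 ratios in retinol over UVR skin were 0.95 for *H2-Ab1* and 0.74 for *Cd74*, and in HPR over UVR skin 1.12 and 1.05. If the spot grid gave the names, the *Cd74* log2 ratios would be -1.56 for retinol and -2.07 for HPR over UVR skin, and those of *H2-Ab1* -0.06 and 0.27.

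The treated skins stood differently to control skin for each gene. *H2-Ab1* in retinol skin was 1.20 times its control level (0.933 to 1.57) and in HPR skin 0.960 times (0.737 to 1.26), both intervals including 1. *Cd74* was 4.20-fold lower than control in retinol skin (3.51 to 5.03) and 2.95-fold lower in HPR skin (2.49 to 3.49). At least 2-fold lower than control were 7.99% of 1802 genes in retinol skin and 7.44% of 1639 genes in HPR skin, and 11.9% and 7.26% were higher. These comparisons share the control section, and those above share the UVR section. Between the treatments, which differ in agent and dose, *Cd74* was 1.43 times as high in HPR as in retinol skin (1.21 to 1.69) and *H2-Ab1* 0.798 times (0.679 to 0.936). Neither reached 2-fold, which 0.852% of 2229 genes did upwards and 1.84% downwards.

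The count of *H2-Ab1* UMIs per *Cd74* UMI sums up this contrast. It is not a ratio of RNA amounts, since each gene was read through its own probes, but its change from section to section needs no scaling by depth. The ratio was 0.828 in HPR skin (0.701 to 0.978), 1.48 in retinol skin (1.26 to 1.74), 0.760 in UVR skin (0.600 to 0.961) and 0.293 in control skin (0.222 to 0.382). Control skin stood apart from all irradiated sections, and retinol skin stood above HPR and UVR skin. The ratio was 2.59 times as high in UVR as in control skin (1.81 to 3.74) and 1.95 times as high in retinol as in UVR skin (1.46 to 2.60). HPR and UVR skin were within counting error of each other, at 1.09 (0.815 to 1.46).

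Spots were grouped by expression into regions. Genes of the lists were left out of this clustering, except the muscle, sebaceous and fibroblast markers. The muscle region was led by *Myh1* and *Mybpc2*. The outer region joined a group led by *Alox12e*, *Mmp11* and *Cntfr* with one led by *Pla2g4d*, *Aqp5*, *Ereg* and *Cnfn*, and lay along 1 edge of the tissue. The middle region was led by *Atp6v0d2*, *Ctsz*, *Ctss* and *Cyba* and carried fibroblast markers at a median log2 fold of 4.03 over the other spots. These markers were open to the clustering and also named the region, so the fold is not separate evidence. A further region, rich in the lipid gene *Scd1* and in *Krt77*, took 243 of the 339 control spots, so that only 15 control spots were called outer. A second clustering was added after this was seen, with stress keratin, cornified envelope, cell division, retinoid and lipid genes left out as well. It placed 133 control spots with 198441 UMIs in the outer region and is used for the outer region wherever control skin is compared there. Middle, muscle and *Scd1*-rich values are from the joint clustering unless the second is named. No cell types were called.

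*Cd74* and *H2-Ab1* were laid out differently over these regions. In the middle region *Cd74* reached 1674 CPM in HPR skin, 1402 CPM in retinol skin and 896 CPM in UVR skin. In the outer region it was at 226, 149 and 47.5 CPM in the same order. *Cd74* per UMI was therefore 7.42-fold (5.31 to 10.2), 9.44-fold (6.68 to 13.1) and 18.9-fold (12.6 to 27.7) higher in the middle than in the outer region of HPR, retinol and UVR skin. *H2-Ab1* did not share that layout in the treated skins. It was at 321 CPM in the middle and 228 CPM in the outer region of HPR skin, a ratio of 1.40 (0.634 to 2.71). In retinol skin it was at 213 CPM in the middle and 291 CPM in the outer region, a ratio of 0.734 (0.293 to 1.53). In UVR skin it was 4.14-fold higher in the middle (1.85 to 8.15), at 218 against 52.6 CPM. Each middle value of *H2-Ab1* rests on 7 to 9 UMIs in the irradiated sections. Within-section contrasts of this kind do not depend on how the sections are named.

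The second clustering gave the same picture on more spots and added control skin. *Cd74* was 5.08-fold (3.97 to 6.45), 6.34-fold (4.73 to 8.45), 17.0-fold (12.0 to 24.0) and 3.47-fold (2.60 to 4.63) higher in the middle than in the outer region of HPR, retinol, UVR and control skin. For *H2-Ab1* the ratios were 0.995 (0.631 to 1.51), 0.955 (0.597 to 1.46), 3.25 (1.68 to 5.79) and 1.56 (0.853 to 2.74). UVR skin was the one section whose *H2-Ab1* interval lay above 1. In the muscle region *Cd74* was at 137, 87.5, 37.9 and 50.6 CPM in HPR, retinol, UVR and control skin, and *H2-Ab1* at 68.3, 43.8 and 12.6 CPM in the irradiated sections. Control muscle had no *H2-Ab1* UMI among 39496, which allows up to 76.0 CPM. In the *Scd1*-rich region of the joint clustering *Cd74* was at 636, 480, 374 and 683 CPM in HPR, retinol, UVR and control skin. *H2-Ab1* was at 137, 74.7 and 222 CPM in retinol, UVR and control skin there, and had no UMI in HPR skin, which allows up to 159 CPM.

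**Figure D2:**
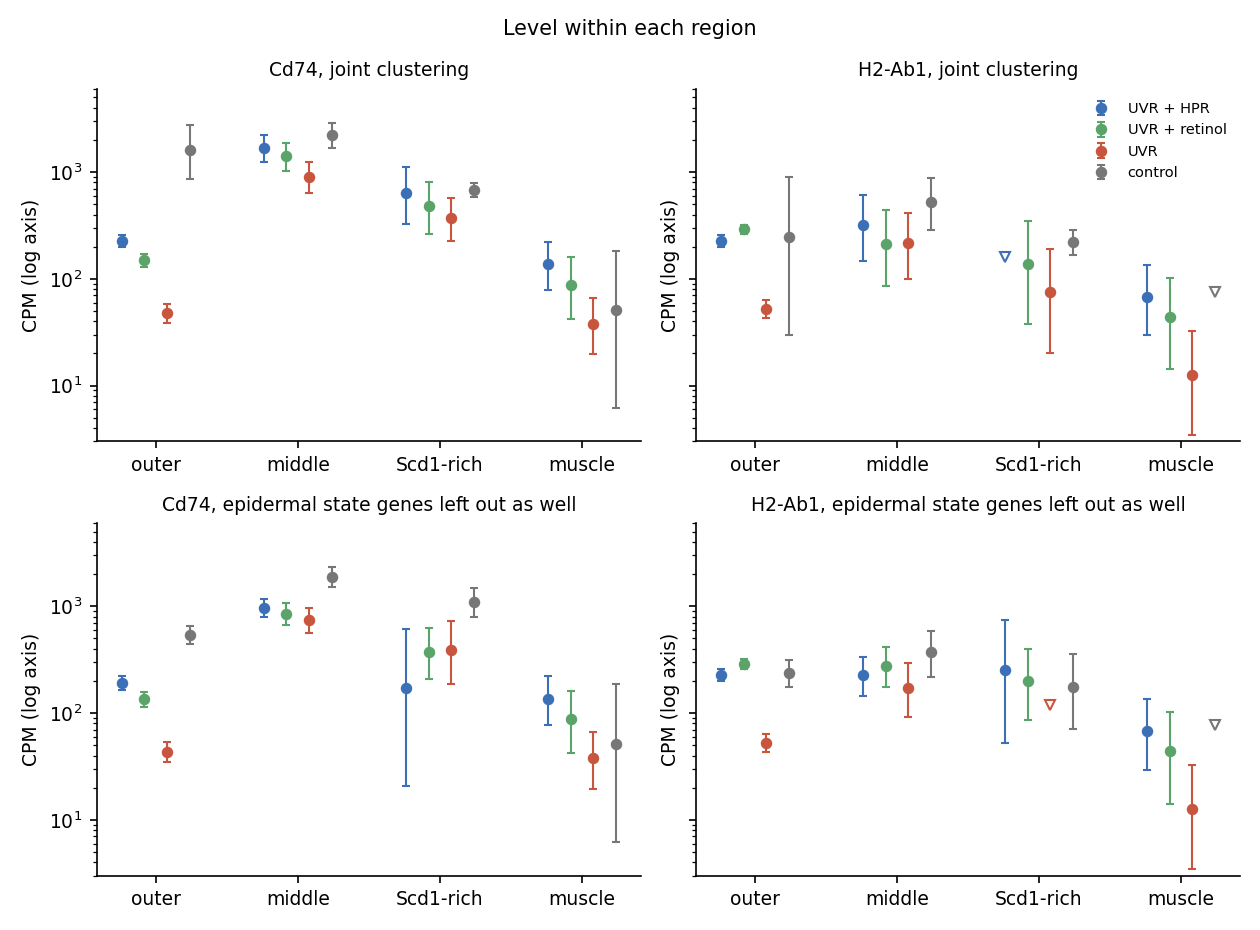
Levels of *Cd74* (left panels) and *H2-Ab1* (right panels) within the regions of each section, in CPM on a log axis, from the joint clustering (top) and from the second clustering without epidermal state genes (bottom). Points are 1 section each with 95% Poisson intervals, and open triangles mark the limit that 0 UMIs allow; in the lower left panel *Cd74* is higher in the middle than in the outer region of every section, by 3.47-fold to 17.0-fold.

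Most UMIs of both genes came from the outer region in the irradiated sections. It held 93.6% of the *H2-Ab1* UMIs of HPR skin, 95.7% in retinol skin and 86.9% in UVR skin, against 86.9%, 87.5% and 83.9% of all UMIs. For *Cd74* the outer shares were 76.6%, 72.4% and 59.6%. There *H2-Ab1* was 5.52-fold higher in retinol than in UVR skin (4.46 to 6.88) and 4.34-fold higher in HPR than in UVR skin (3.46 to 5.47). *Cd74* was 3.13-fold (2.44 to 4.02) and 4.75-fold (3.76 to 6.04) higher there. The summed level of 6 fibroblast markers in the outer region was 1331 CPM in HPR, 567 CPM in retinol and 268 CPM in UVR skin, in the order of *Cd74*. Over whole sections it was 1614, 842, 471 and 1815 CPM in HPR, retinol, UVR and control skin, again in the order of *Cd74*, and its part in the *Cd74* ratios was not tested. HPR skin had 1.52 times the *Cd74* level of retinol skin in the outer region (1.25 to 1.85) and 0.786 times its *H2-Ab1* level (0.666 to 0.926).

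In the middle region the sections lay closer together. *Cd74* was 1.87 times as high in HPR as in UVR skin (1.19 to 2.95) and 1.56 times as high in retinol as in UVR skin (0.993 to 2.48). In the second clustering these ratios were 1.32 (0.946 to 1.85) and 1.15 (0.8 to 1.66), both intervals including 1. With each section clustered alone, the log2 ratio of retinol over UVR skin was -0.15 in place of 0.65. Against control skin, middle-region *Cd74* was 2.47-fold lower in UVR skin (1.61 to 3.84). With spots of at least 500 UMIs this log2 ratio was -2.51, and with each section clustered alone -2.42, against -1.31. For *H2-Ab1* the middle-region ratio of UVR over control was 0.415 (0.158 to 1.03) on 9 and 14 UMIs, that of retinol over UVR 0.979 (0.310 to 2.95) and that of HPR over UVR 1.47 (0.517 to 4.18), all including 1. With each section clustered alone, which placed 46 control and 240 to 273 irradiated spots per section in the middle region, these ratios were 0.181 (0.0823 to 0.411), 3.01 (1.82 to 5.28) and 2.42 (1.39 to 4.40). Whether middle-region *H2-Ab1* differed between sections thus depended on where the region was drawn.

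For the outer region against control skin the second clustering was used. *Cd74* was at 192 CPM in HPR skin, 134 CPM in retinol skin, 43.4 CPM in UVR skin and 544 CPM in control skin. *H2-Ab1* was at 227, 289, 52.8 and 237 CPM in that order. The whole-section order of both genes was thus found again within the outer region, with *Cd74* 12.5-fold (9.41 to 16.7) and *H2-Ab1* 4.49-fold (3.12 to 6.36) lower in UVR than in control skin. On the 15 control spots of the joint clustering, with 13 *Cd74* UMIs, the *Cd74* log2 ratio was -5.08 in place of -3.65.

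The ratio of *H2-Ab1* to *Cd74* UMIs also separated the regions. In the middle region it was 0.191 in HPR skin, 0.152 in retinol skin, 0.243 in UVR skin and 0.237 in control skin, with overlapping intervals. In the outer group led by *Alox12e* it was 0.703 in HPR skin (0.563 to 0.876), 1.49 in retinol skin (1.21 to 1.85) and 0.831 in UVR skin (0.587 to 1.17). In the outer group led by *Pla2g4d* and the cornified envelope gene *Cnfn* it was 2.47 in HPR skin (1.71 to 3.60), 4 in retinol skin (2.73 to 6.01) and 1.96 in UVR skin (1.19 to 3.31). The *Cnfn* group had the highest ratio of the 3 in each irradiated section. There *Cd74* was at 94.0, 69.8 and 22.0 CPM in HPR, retinol and UVR skin and *H2-Ab1* at 232, 279 and 43.0 CPM. In the *Alox12e* group *Cd74* was at 321, 200 and 76.3 CPM and *H2-Ab1* at 226, 298 and 63.4 CPM. The ratio thus differed between the outer groups mainly through *Cd74*, while *H2-Ab1* differed less. In the second clustering the outer ratio of control skin was 0.435 (0.302 to 0.618), below the 1.18, 2.15 and 1.22 of HPR, retinol and UVR skin.

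**Figure D3:**
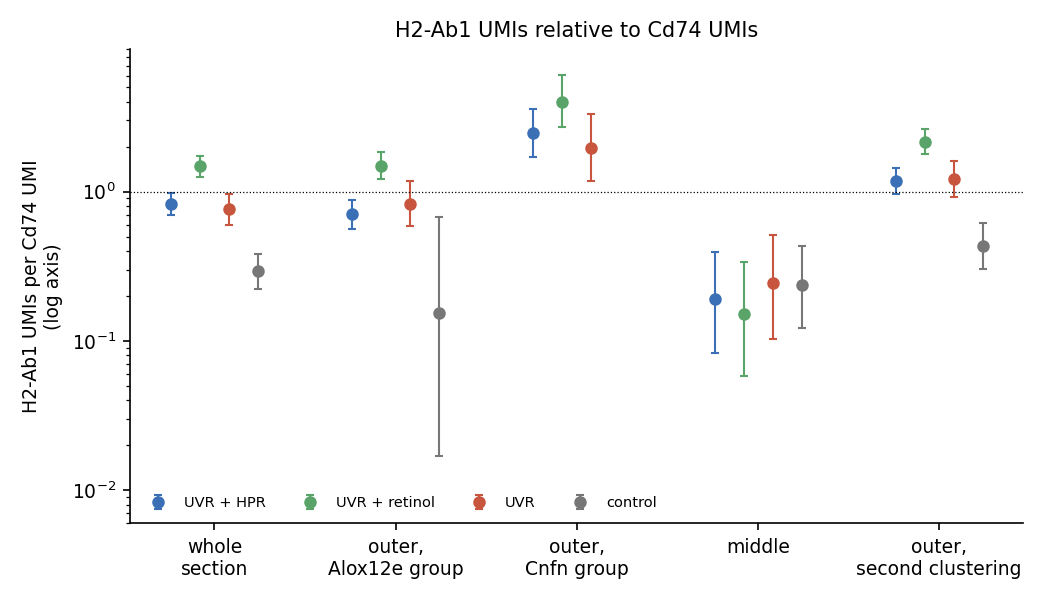
*H2-Ab1* UMIs per *Cd74* UMI on a log axis, for whole sections, both outer groups and the middle region of the joint clustering, and the outer region of the second clustering; points are 1 section each with 95% intervals, and the dotted line marks equal counts. The middle region lies between 0.152 and 0.243 in all 4 sections, and the *Cnfn* group between 1.96 and 4 in the irradiated ones; a control point is left out where it had no UMI of either gene.

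Single spots held few molecules of either gene. In HPR skin 196 of 644 spots had a *Cd74* UMI, 124 of them exactly 1, and no spot had more than 8. *H2-Ab1* reached 9 UMIs in a spot of retinol skin. As deposited, *Cd74* was seen in 30.4% of HPR spots, 28.9% of retinol spots, 19.3% of UVR spots and 44.2% of control spots. *H2-Ab1* was seen in 22.2%, 28.5%, 14.4% and 15.0% in that order. These shares follow depth as well as level, since median UMIs per spot were 653, 982, 1641 and 527.

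With every spot thinned to 500 UMIs and shallower spots left out, *Cd74* was seen in 13.3% of 400 HPR spots (10.1% to 17.0%), 10.4% of 375 retinol spots (7.50% to 13.9%), 7.44% of 497 UVR spots (5.30% to 10.1%) and 34.4% of 180 control spots (27.5% to 41.9%). *H2-Ab1* was seen in 5.25% of HPR spots (3.28% to 7.91%), 9.33% of retinol spots (6.59% to 12.7%), 3.62% of UVR spots (2.16% to 5.66%) and 12.2% of control spots (7.82% to 17.9%). Thinning left out 244 HPR, 169 retinol, 150 UVR and 159 control spots. Control skin had the largest share for *Cd74*, and UVR skin the smallest for both. In muscle, taken as the region that should hold least class II RNA, thinned shares of *Cd74* were 4.46%, 1.14%, 1.42% and 5.88% in HPR, retinol, UVR and control skin. Those of *H2-Ab1* were 2.68%, 0%, 0.709% and 0%, where 0 of 88 retinol and 0 of 17 control spots allow up to 3.41% and 17.6%. For *H2-Ab1* the section's interval lay above the muscle interval in retinol skin only, and for *Cd74* in retinol and UVR skin. The other thinned intervals overlapped, which on so few spots cannot show that those shares were background. Without thinning, the *H2-Ab1* level of outer region over muscle was 3.34 (1.67 to 7.83) in HPR and 4.16 (1.58 to 15.5) in UVR skin. For *Cd74* it was 1.65 (0.997 to 2.94) in HPR skin and, in the second clustering, 10.6 (2.86 to 88.6) in control skin. Median depths in muscle as deposited were 556, 725, 1680.5 and 1332 UMIs.

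The map of spots shows the layout behind these shares. Spots with *H2-Ab1* alone or with both genes lined the outer edge of HPR and retinol skin, whereas spots with *Cd74* alone also lay deeper. In the *Cnfn* group 47.2% of HPR, 60.0% of retinol and 27.6% of UVR spots held *H2-Ab1*, against 25.5%, 29.4% and 19.0% that held *Cd74*. In the middle region the order was the other way round, with *H2-Ab1* in 9.68%, 8.64%, 10.4% and 20.3% of HPR, retinol, UVR and control spots and *Cd74* in 45.2%, 35.8%, 31.2% and 52.5%.

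**Figure D4:**
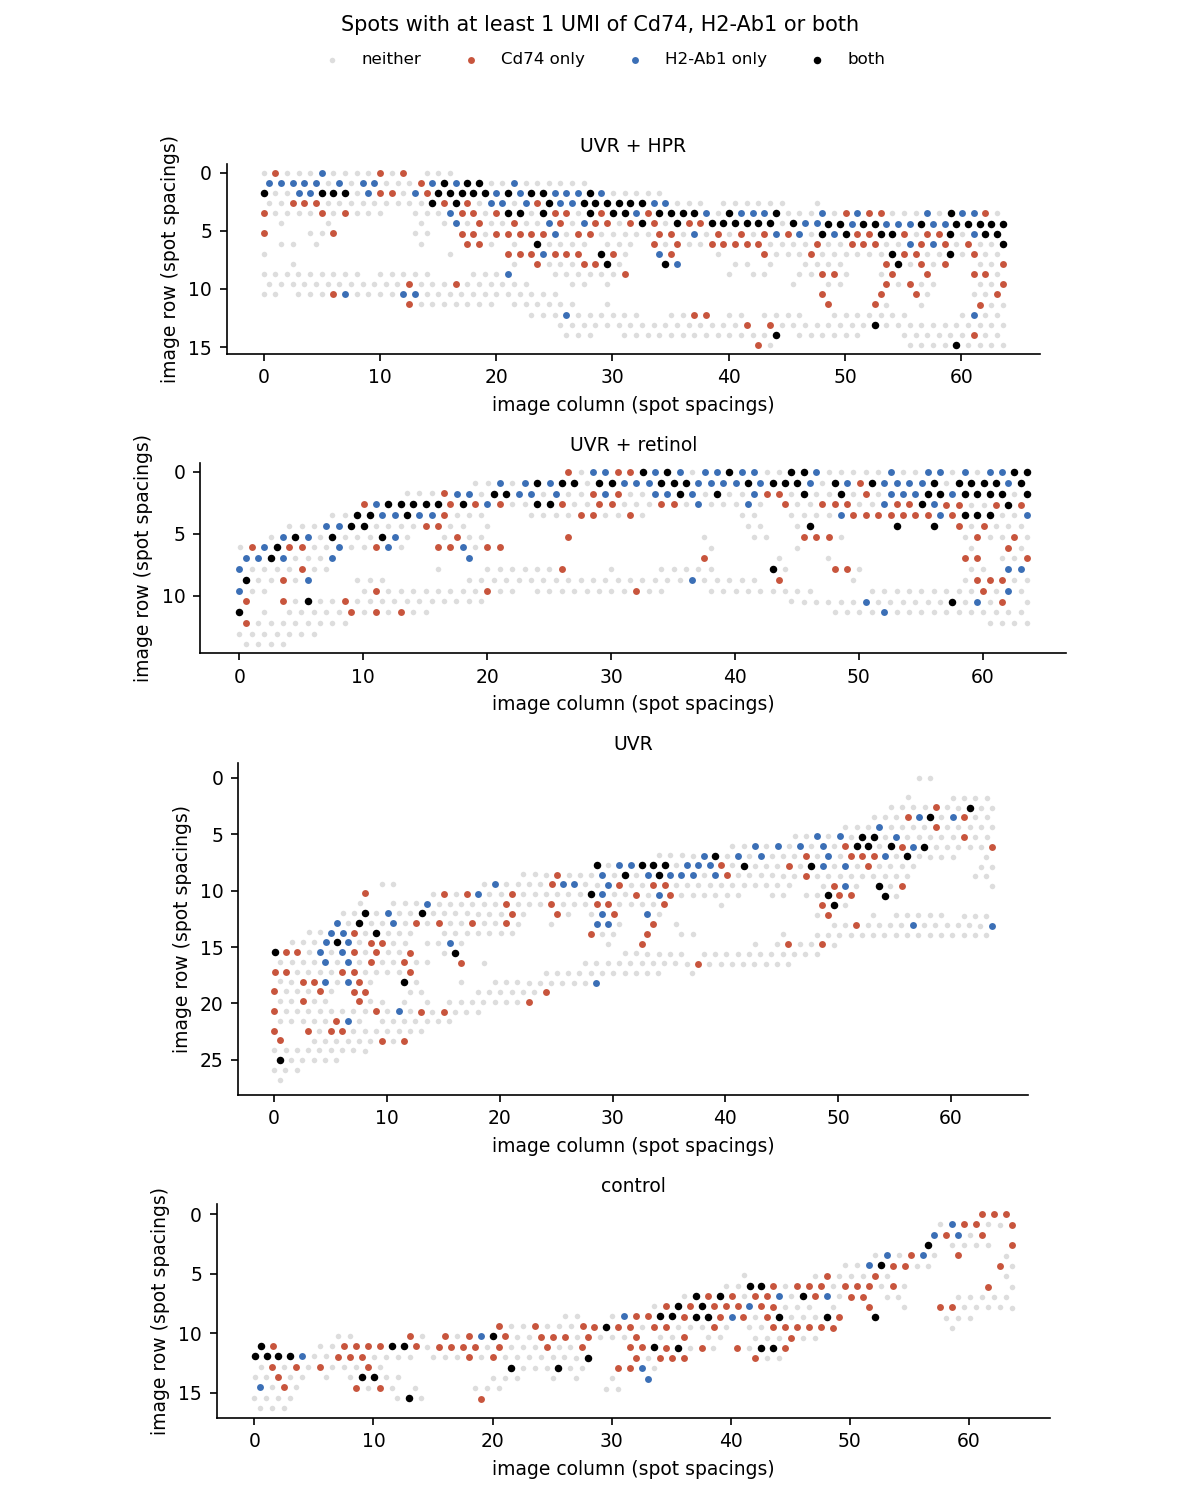
Kept spots of each section drawn at their image position in units of the distance between neighbouring spots, coloured by whether they hold at least 1 UMI of *Cd74*, of *H2-Ab1*, of both or of neither, as deposited. Both genes were found in 11.6% of HPR, 13.1% of retinol, 4.95% of UVR and 10.3% of control spots; deep spots hold more UMIs, so colours follow depth as well as level.

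Whether both genes fell in the same spots was asked by setting the spots with both beside the product of the 2 shares. In HPR skin 75 spots held both, against 43.5 from the product of the section's shares, a ratio of 1.72 (1.36 to 2.16). Retinol skin had 71 against 44.7, a ratio of 1.59 (1.24 to 2.00). UVR skin had 32 against 18, at 1.78 (1.22 to 2.51), and control skin 35 against 22.6, at 1.55 (1.08 to 2.16). All 4 ratios exceeded 1 beyond their counting intervals at this level. Taken within section and region, the ratios were 1.33 (1.05 to 1.67) in HPR skin, 1.23 (0.960 to 1.55) in retinol skin, 1.55 (1.06 to 2.19) in UVR skin and 1.46 (1.02 to 2.03) in control skin. When spots were also split into 3 equal groups by their UMI total, they were 1.1 (0.864 to 1.38), 1.1 (0.859 to 1.39), 1.36 (0.929 to 1.92) and 1.16 (0.807 to 1.61). All 4 ratios stayed above 1, and every interval then included 1. These Poisson intervals are wider than the spread expected with both shares fixed. They therefore cannot decide whether an excess of shared spots beyond region and depth remained. With at least 2 UMIs of each gene the within-region ratios were 1.80, 1.67, 2.76 and 2.13, on 21, 24, 4 and 6 spots with both. After thinning only 2, 5, 2 and 14 spots held both.

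**Figure D5:**
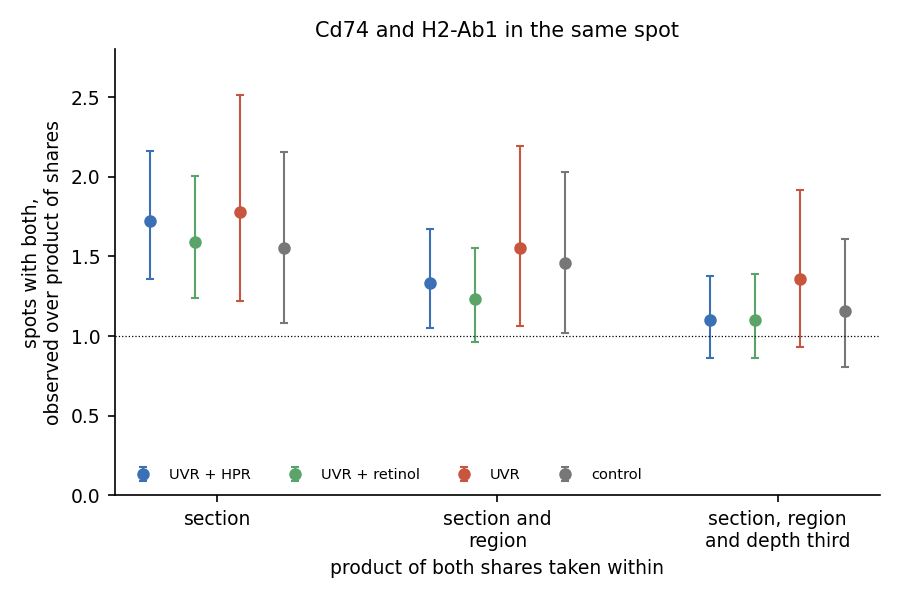
Number of spots with both genes over the number given by the product of both shares, within the section, within section and region, and within section, region and depth group; points are 1 section each with 95% Poisson intervals, and the dotted line marks a ratio of 1. Ratios of 1.55 to 1.78 within sections stand beside 1.1 to 1.36 within region and depth group, where all intervals reach below 1.

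The level of one gene in spots with and without the other was compared within the outer region. *H2-Ab1* was at 247 CPM in HPR spots with *Cd74* and 206 CPM in those without, a ratio of 1.20 (0.924 to 1.56). In retinol skin it was at 317 and 267 CPM, a ratio of 1.18 (0.958 to 1.47). In UVR skin it was at 80.4 CPM with and 43.1 CPM without *Cd74*, a ratio of 1.86 (1.25 to 2.76). UVR skin alone thus had an interval above 1. Spots with *Cd74* were deeper, with medians of 2930, 4384 and 5306 UMIs against 1062, 2413 and 3285 UMIs, and the part of depth in this difference was not tested. The reverse comparison ran the other way, with *Cd74* at 174 CPM in HPR outer spots with *H2-Ab1* and 350 CPM in those without, and at 124 and 220 CPM in retinol skin. In UVR skin it was at 41.8 and 51.3 CPM, with an interval that included 1. Outer spots with *H2-Ab1* had medians of 5445, 6204 and 9154 UMIs in HPR, retinol and UVR skin. Those without it had 721, 1315 and 2660 UMIs, a wider gap in depth than above, and its part was not tested either.

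Neighbouring spots tended to hold the same gene, most clearly *H2-Ab1* in treated skin. Beside retinol spots with *H2-Ab1*, 53.8% of neighbours held it too, against 21.4% beside spots without it. The shares were 48.6% and 17.8% in HPR skin, 27.9% and 13.9% in UVR skin and 18.9% and 15.5% in control skin. With neighbours limited to the same region they were 58.5% and 22.4% in retinol skin and 50.6% and 19.7% in HPR skin. For *Cd74* the shares were 44.9% and 26.8% in HPR skin, 39.8% and 26.1% in retinol skin, 26.8% and 18.5% in UVR skin and 52.8% and 41.1% in control skin. Neighbours share section, region and depth, and these shares are a description.

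The other genes of class II presentation were read from a list of 31 symbols, of which 13 to 16 had at least 20 UMIs in a comparison with UVR skin. In UVR against control skin none of 13 was at least 2-fold higher and 10 were at least 2-fold lower, beside 12.9% and 17.4% of 5893 genes, and the list median was -1.70 on the log2 scale against -0.10 over all genes. This fall was not particular to class II. Of other lists, 4 of 4 fibroblast, 4 of 4 sebaceous, 3 of 3 adipocyte, 3 of 3 plasma cell and 5 of 6 macrophage genes were at least 2-fold lower. Their medians were -1.89, -3.63, -3.23, -2.29 and -2.36. Keratinocyte genes had 3 of 6 lower and 2 higher, and muscle genes 0 of 6 either way. In retinol against UVR skin 6 of 15 were higher and 3 lower, beside 6.31% and 13.3% of 6439 genes, with medians of 0.35 and -0.11. In HPR against UVR skin 6 of 16 were higher and 1 lower, beside 5.92% and 14.4% of 6368 genes, with medians of 0.57 and -0.15. Against control skin 1 of 12 was higher and 8 were lower in retinol skin, beside 11.7% and 18.8% of 4595 genes, and 0 of 13 were higher and 7 lower in HPR skin, beside 8.3% and 17.4% of 4349 genes. *Cd74* and *H2-Ab1* are members of this list and are in these counts.

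Among the class II chains, *H2-Eb1*, the beta chain of I-E, was at 72.0 CPM in HPR skin (57.9 to 88.5), 52.3 CPM in retinol skin (41.1 to 65.7), 23.8 CPM in UVR skin (18.2 to 30.6) and 199 CPM in control skin (154 to 254). Its sections therefore stood in the order of *Cd74* and not in that of *H2-Ab1*: it was 8.36-fold lower in UVR than in control skin (5.80 to 12.1) and still 3.81-fold lower in retinol (2.69 to 5.39) and 2.77-fold lower in HPR than in control skin (1.98 to 3.85). *H2-Aa*, the alpha chain that pairs with *H2-Ab1*, had only 11, 14, 10 and 9 UMIs, or 8.80, 9.89, 3.91 and 27.6 CPM in HPR, retinol, UVR and control skin. Probes differ between genes, so these levels do not give the amounts of the chains relative to each other.

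The peptide editor H2-DM is made of *H2-DMa* and a beta chain such as *H2-DMb1*. *H2-DMa* was at 38.4 CPM in HPR skin, 58.7 CPM in retinol skin, 20.7 CPM in UVR skin and 67.5 CPM in control skin. *H2-DMb1* was at 24.8, 33.9, 6.64 and 24.5 CPM in the same order, on 31, 48, 17 and 8 UMIs. *H2-DMb1* was at 1.01 times its control level in HPR skin (0.455 to 2.55) and 1.38 times in retinol skin (0.648 to 3.38), with wide intervals that included 1. It was 5.11-fold higher in retinol (2.88 to 9.47) and 3.73-fold higher in HPR than in UVR skin (2.00 to 7.19). Its copy *H2-DMb2* is similar in sequence, and the counting may have split reads between them.

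Promoter stretches of 3 of these genes are shown as a description. *H2-Eb1* and *H2-DMb1* hold both strings searched for, from the X and Y boxes of class II promoters, and *H2-Aa* holds only the Y string. X boxes with other letters were not searched for, so a missing match does not mean a missing X box. No promoter entry was found for *Cd74* or *H2-Ab1*, and the letters were not related to the levels. The stretches run from 120 to 21 bases before the RefSeq start in GRCm38.p6, 5′ to 3′ on the gene's strand, at chr17:34305747-34305846 (plus) for *H2-Eb1*, chr17:34153071-34153170 (plus) for *H2-DMb1* and chr17:34287844-34287943 (minus) for *H2-Aa*. Capitals mark AACNGATG, letters of the X box, and TGATTGG, letters of the Y box that the factor NF-Y can bind.
H2-Eb1: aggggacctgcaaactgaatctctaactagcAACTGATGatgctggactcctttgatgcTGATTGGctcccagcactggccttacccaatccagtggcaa
H2-DMb1: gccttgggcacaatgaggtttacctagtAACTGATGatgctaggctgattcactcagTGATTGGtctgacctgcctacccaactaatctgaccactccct
H2-Aa: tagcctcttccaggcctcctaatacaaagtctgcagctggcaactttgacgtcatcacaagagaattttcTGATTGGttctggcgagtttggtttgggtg

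On both strands of 300-base windows, AACNGATG was found in 4 and TGATTGG in 7 of the 8 class II H2 genes of the list that matched a RefSeq promoter. Over all 32851 promoters AACNGATG was in 2.32%, TGATTGG in 7.82% and both in 0.186%. A match is a description of letters only, and the H2 promoters include close copies.

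Genes of class II transcription were scarce, apart from *Rfxap*. *Rfxap*, a subunit of the RFX complex that binds the X box, was at 155 CPM in HPR, 278 CPM in retinol, 223 CPM in UVR and 129 CPM in control skin, so it was highest in retinol skin and lowest in control skin. It was the 1 list member at least 2-fold higher in retinol than in control skin. Its partner *Rfxank* had 7, 3, 13 and 2 UMIs, the NF-Y subunit *Nfyb* 4, 4, 16 and 0, and *Creb1*, whose product binds cyclic AMP elements, 3, 4, 20 and 3. *Ciita*, the class II transactivator, had 8 UMIs in HPR, 5 in retinol, 0 in UVR and 2 in control skin, and is named although it falls under the 20 UMIs of the rule. With UVR skin set to a floor of 3 UMIs, *Ciita* was 5.46-fold higher in HPR and 3.01-fold higher in retinol skin, counting error left aside. Its level was 6.40 CPM in HPR skin (2.76 to 12.6) and 3.53 CPM in retinol skin (1.15 to 8.25). The interval of UVR skin reached 1.44 CPM and overlapped that of retinol skin.

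Of the endosomal proteases that act on the invariant chain or on antigen, *Ctss*, *Ctsl*, *Ctsb* and *Lgmn* were at least 2-fold lower in UVR than in control skin, and none of these 4 was 2-fold higher in either treated skin than in UVR skin. *Ctss*, a cysteine protease that trims the invariant chain, was at 53.6 CPM in HPR, 55.1 CPM in retinol, 36.7 CPM in UVR and 205 CPM in control skin. It was 5.59-fold lower in UVR than in control skin (4.03 to 7.73), and 1.46 times (1.05 to 2.02) and 1.5 times (1.10 to 2.05) its UVR level in HPR and retinol skin. *Ctsl* was at 205, 173, 136 and 420 CPM, *Ctsb* at 131, 125, 141 and 463 CPM, and *Ctsd* at 143, 117, 182 and 276 CPM in the same order. The legumain gene *Lgmn* was at 20.8, 4.95, 25.4 and 64.4 CPM. *Sppl2a*, which clears the last fragment of the invariant chain, was at 14.4, 4.24, 6.64 and 15.3 CPM, and was at least 2-fold higher in HPR than in UVR skin. In HPR against retinol skin *Lgmn* and *Sppl2a* were the 2 of 13 list members at least 2-fold higher, beside 3.79% of 5300 genes, and none was lower, beside 4.55%.

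The class I list, for antigen shown to CD8+ T cells, held 21 genes. Of 14 measured, 5 were at least 2-fold lower in UVR than in control skin and none higher, beside 17.4% and 12.9% of 5893 genes, with a median log2 ratio of -0.80 against -0.10 over all genes. *H2-Q6*, whose counts may be shared with its near copy *H2-Q7*, and *H2-T23* were lowest, with ratios of 0.202 and 0.203, and *Calr* and *Nlrc5* highest, at 0.843 and 0.835. In retinol against UVR skin 6 of 17 were higher and none lower, beside 6.31% and 13.3% of 6439 genes. They ranged from *H2-Q4* at 5.17 (2.10 to 14.5) and *Psmb9* at 2.94 down to *H2-K1* at 0.775 and *Canx* at 0.786. In HPR against UVR skin 3 of 15 were higher and none lower, beside 5.92% and 14.4% of 6368 genes. They ranged from *Psmb8* at 2.39 and *Pdia3* at 2.20 down to *H2-T23* at 0.643 and *Nlrc5* at 0.726. Of the genes of the interferon gamma response only 6 were measurable against UVR skin. *Socs1* was highest in retinol and in HPR over UVR skin, at 3.80 (2.42 to 6.08) and 2.32 (1.38 to 3.92), followed by *Irf8* at 1.75 and 2.12, while *Ifngr1* stood at 0.706 and 0.749 and *Ifngr2* at 0.775 and 0.487. In UVR over control skin *Irf8* and *Jak1* were lowest, at 0.231 and 0.255, and *Ifngr2* and *Socs1* highest, at 1.34 and 0.765.

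Markers of cells that carry class II were sparse. All 12 macrophage markers were in the tables, and their summed level was 121 CPM in HPR, 98.2 CPM in retinol, 84.8 CPM in UVR and 365 CPM in control skin. In the middle region it was 1959, 2225, 2423 and 2929 CPM, and in the outer region 54.3, 34.7 and 32.1 CPM in HPR, retinol and UVR skin. In muscle it was 273, 140, 120 and 127 CPM in HPR, retinol, UVR and control skin. Both the sum and *Cd74* were highest in the middle region. In the irradiated sections the sum was higher in muscle than in the outer region. The *Cd74* ratio of outer region over muscle had an interval that included 1 in each of these sections. Within the middle region the sum was highest in UVR and lowest in HPR skin among the irradiated sections. *Cd74* there was 1.87 times as high in HPR as in UVR skin (1.19 to 2.95), but 1.32 times (0.946 to 1.85) in the second clustering. Its ratios of HPR over retinol and of retinol over UVR skin had intervals that included 1. No interval was computed for the sum. The part of macrophages in the *Cd74* levels was not tested. *Adgre1* was at 0 in HPR, retinol and control skin. The Langerhans cell gene *Cd207* had 3, 2, 2 and 5 UMIs in HPR, retinol, UVR and control skin. The 4 Langerhans markers summed to 62.4, 60.8, 23.5 and 147 CPM, of which *Epcam*, also made by keratinocytes, gave 73, 80, 55 and 43 of 78, 86, 60 and 48 UMIs. The 8 dendritic cell markers summed to 4, 9, 9 and 5 UMIs, with *Flt3* and *Xcr1* at 0 in all 4 sections. Of 5 B cell markers *Cd79a* alone had UMIs, 4 in retinol and 3 in UVR skin, and the 6 T cell markers summed to 6, 14, 6 and 6 UMIs.

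Genes with the most similar layout were ranked by Pearson correlation of log2(CPM + 10) over 15 combinations of section and region with at least 10000 UMIs, among 2379 genes with at least 200 UMIs. For *Cd74* they were *Atp13a2*, *Tmsb4x*, *Lmbrd1*, *Kdm3b* and *Twist1*, with r between 0.94 and 0.93, and *H2-Eb1* ranked 6 at 0.92. For *H2-Ab1* they were *Tmem185b*, *Sin3b*, *Ptbp3*, *Gm2a* and *Rhog*, with r between 0.87 and 0.86. *Cd74* and *H2-Ab1* correlated with each other at 0.61, and *H2-Ab1* ranked 375 among the genes like *Cd74*. The 15 points share sections and depth, and the correlations are a description.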

How the data were processed

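Per the labels' protocols, fresh frozen skin was cryosectioned onto Visium slides and probed with the kit for fixed tissue. What was deposited is 1 matrix of raw UMI counts for each capture area. The submitters' processing notes name Space Ranger 2.0.0, Seurat 4.1.0 and mm10, the assembly also called GRCm38. The deposited spot positions, in image pixels, split each area into 2 sections at the gap between tissue pieces. *Cd74* and *H2-Ab1* were matched by symbol; 11 other symbols were repeated and left out of gene counts. No column of another sample was used, and 430 barcodes occurred in both areas, which reuse the same barcode set.

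Counts of spots with at least 200 UMIs were summed per section or region. Groups were compared as CPM ratios with 95% Clopper-Pearson limits on the binomial split of counts, levels with exact Poisson limits and shares with Clopper-Pearson limits; a group at 0 was set to 3 counts. UMIs of PCR-amplified probes may not all be separate molecules. Spots are not replicates, and there is no p-value. Spots were clustered with scanpy 1.11.5 (10000 counts per spot, 2000 variable genes, 20 components, 15 neighbours, resolution 0.5). Listed genes were left out of the variable genes, except the muscle, sebaceous and fibroblast markers. Clusters were assigned to muscle, *Scd1*-rich or middle by the marker list (muscle, sebaceous, fibroblast) of greatest median log2 fold where this reached 2, and to outer where none did. Depth groups split the spots of 1 section and region by UMI total into 3.

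The members, gene lists and alternatives were chosen with earlier results of these data known. Named genes are the members, class II list genes with at least 20 UMIs over all kept spots, the 5 most similar genes of each member, and the 2 highest and 2 lowest members of other lists. One list gene appears under both its old and its new symbol. Ratios, thinning and co-occurrence were tested on simulated data. The software was matplotlib 3.10.9, igraph 0.11.9, scikit-learn 1.9.0, scipy 1.17.1, pandas 2.3.3, numpy 2.4.6 and Python 3.11.15. Promoters and gene positions are from RefSeq (GRCm38.p6).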

Additional observations from a re-analysis of the deposited data

How the results depend on the processing

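Of 349 alternatives computed, 247 stayed within the counting interval or within 1.5 times the count reported. All 18 log2 ratios of at least 1 in size kept their direction under every alternative but the spot-grid reading. Depth limited all per-spot results, and few UMIs stood behind *H2-Ab1* in the middle region of the joint clustering. Control skin had the fewest UMIs. Median-ratio scaling shifted log2 ratios against control skin by 0.11 to 0.14 and changed no direction of a 2-fold difference. No paired analysis was possible because each group had 1 section. No cause of a change below was tested.

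With the groups of each area exchanged by the spot grid, whole-section log2 ratios of *Cd74* were 3.5 for UVR over control, -1.56 for retinol over UVR, -2.07 for HPR over UVR, -0.51 for HPR over retinol, 1.94 for retinol over control and 1.43 for HPR over control. Those of *H2-Ab1* were 2.12, -0.0586, 0.27, 0.33, 2.06 and 2.39 in that order, and those of *H2-Ab1* per *Cd74* were -1.37, 1.5, 2.34, 0.84, 0.12 and 0.96. In the outer region *Cd74* was at 5.08, -2.83, -3.43 and -0.60 and *H2-Ab1* at 2.23, -0.11, 0.23 and 0.35 in the first 4 comparisons, and in the middle region *Cd74* was at 1.31, -0.40 and -0.66 in the first 3.

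On the left image side *Cd74* log2 ratios were -2.92 for UVR over control, 0.91 for retinol over UVR and 1.46 for HPR over UVR; on the right side they were -4.02, 1.92 and 2.42. Equal weights for outer, middle and muscle gave *Cd74* -1.98, 0.74 and 1.05 in these comparisons, -1.24 for retinol over control and -0.93 for HPR over control. They gave *H2-Ab1* -1.45, 0.95 and 1.12, then 0.17 for HPR over retinol and -0.50 for retinol over control. The *Scd1*-rich region, where most control spots lay, has no part in these weights. The outer *Cd74* ratio of UVR over control was -3.61 at resolution 0.3, -3.53 at resolution 0.8, -3.91 with all genes in the clustering and -3.65 in the second clustering, which was chosen after seeing the data, as was clustering each section alone; HPR over UVR was 1.87 at resolution 0.8. Middle-region *Cd74* was -2.51 for UVR over control from 500 UMIs per spot and -2.42 with sections clustered alone, where retinol over UVR was -0.15.

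Without thinning, *Cd74* was seen in 30.4% of HPR, 28.9% of retinol, 19.3% of UVR and 44.2% of control spots, *H2-Ab1* in 22.2%, 28.5% and 14.4% and both in 11.6%, 13.1% and 4.95% of HPR, retinol and UVR spots. Thinned to 1000 UMIs, *Cd74* was seen in 21.6% of HPR, 16.4% of retinol and 43.3% of control spots, *H2-Ab1* in 20.3% of HPR and 20.1% of retinol spots, and both in 3.32% and 3.72%. Thinned to 200 UMIs, *Cd74* was seen in 9.32% of HPR, 4.95% of UVR and 19.5% of control spots, *H2-Ab1* in 5.15% of retinol, 1.70% of UVR and 3.54% of control spots, and both in 0.368% of retinol, 0% of UVR and 0.885% of control spots. The number of spots with both over the product of shares was 0.737 in HPR and 0.728 in UVR skin after thinning to 500 UMIs. It was 1.80, 1.67, 2.76 and 2.13 in HPR, retinol, UVR and control skin with at least 2 UMIs of each gene, and 1.72 in HPR and 1.59 in retinol skin within the section only.

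With genes of at least 20 UMIs, 17.4% were at least 2-fold lower in UVR than in control skin, 5.92% higher and 14.4% lower in HPR than in UVR skin, 3.79% higher and 4.55% lower in HPR than in retinol skin, 18.8% lower in retinol than in control skin and 17.4% lower in HPR than in control skin. From 500 UMIs, 4.28% were lower in UVR, 5.11% in retinol and 4.83% in HPR than in control skin, and 0.131% were higher in HPR than in retinol skin. With class II list members of at least 50 UMIs, 1 was lower in retinol than in UVR skin, 3 were higher and 0 lower in HPR than in UVR skin, and 0 were higher in HPR than in retinol skin.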

Other observations

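Spots with fewer than 200 UMIs, left out of all comparisons, also held both genes. Over 340 HPR, 243 retinol, 292 UVR and 126 control spots of this kind *Cd74* was at 1133 CPM (820 to 1526), 1273 CPM (876 to 1787), 676 CPM (407 to 1055) and 1588 CPM (1027 to 2344) in that order. *H2-Ab1* was at 132, 193, 107 and 445 CPM, on 5, 5, 3 and 7 UMIs. *Cd74* per UMI was thus higher in these sparse spots than in the kept spots of each section, and no section was above control skin.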
